A study of Mus musculus with 8 samples.

Results

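Most of the genes described here encode ribosomal proteins, translation factors, RNA polymerase subunits or proteins that process, modify or splice RNA. Others, Wdr11 and Mettl9 among them, were taken in by symbol prefix without such a role. All the genes were measured in mouse bone marrow cells transduced with Hoxa9 and Meis1. They comprise 51 probe sets with 49 gene symbols, out of 28853 probe sets on the array. They were taken from the authors' list of 1264 probe sets by symbol alone: a single symbol that is Aatf or begins with Mrpl, Mrps, Rpl, Rps, Eif, Nop, Nol, Utp, Polr, Exosc, Ddx, Wdr, Trm, Mett, Sf3, Prpf or a few related prefixes, with Eif2s3y left out. The list holds 1081 probe sets with a single symbol, so 1030 named probe sets lie outside the group. The authors had selected the list on these same arrays, by an uncorrected p-value under 0.05 for any difference between the 4 groups, and the p-values of the group in the authors' deposited table ran from 0.00169 for Wdr61 to 0.0492 for Mrpl38. Just inside that threshold with Mrpl38 stood Rps6kb1 at 0.048 in the authors' deposited table, and probe sets just outside it carry no name here. Every difference between groups given for these genes therefore includes the differences that selected them, and their counts and medians are descriptions from which nothing is read.

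The arrays form 4 groups of 2, named KO_starmut, KO_223mut, KO_MIG and WT_MIG in the titles and numbered as replicates 2 and 3 in each. Total bone marrow came from mice with a deletion of the microRNA miR-223 (mir-223-/-) in the KO_starmut, KO_223mut and KO_MIG groups, and from wild type C57/BL6 mice in the WT_MIG group. Cells of all groups were prestimulated for 2 days and then carried MSCV-Hoxa9-pgk-neomycin and MSCV-Meis1-IRES-YFP, both delivered by culture on virus producer cells that had received 4000 cGy. YFP sorting and neomycin at 1.4 mg/ml selected the transduced cells, so the wild-type cells carry both genes as well and no marrow without them was compared. The labels spell out neither MIG nor the mutations. From the names, KO_starmut is taken to carry a miR-223 vector with an altered passenger strand, and KO_223mut one with an altered guide strand. The ages of the mice, and whether several mice were pooled, are not given in the sources used here.

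Ribosome production begins in the nucleolus, where RNA polymerase I makes a long ribosomal RNA precursor. Small nucleolar RNPs, helicases, the small subunit processome and the RNA exosome fold, modify and trim that precursor while ribosomal proteins are added to it, and RNA polymerase III supplies the remaining ribosomal RNA and the transfer RNAs. Mitochondria assemble a separate ribosome whose proteins are all encoded in the nucleus. In blood-forming cells, output of this machinery is generally high in dividing progenitors and declines as granulocytes mature. MiR-223 is a myeloid microRNA that increases as granulocytes differentiate, and microRNAs recognise target messages mainly through the seed at bases 2 to 8.

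The mature strands of the hairpin that separates the genotypes and vectors are shown because the group names refer to them. They are RefSeq sequences of assembly GRCm38.p6 on the plus strand of chromosome X, at chrX:96242842-96242864 for the passenger strand miR-223-5p and chrX:96242884-96242905 for the guide strand miR-223-3p. Capitals mark the seed, and the 2 strands have different seeds.
miR-223-5p: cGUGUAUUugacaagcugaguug
miR-223-3p: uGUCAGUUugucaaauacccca

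Stretches of 60 bases from 5 promoters are shown because the same letters, CCGGAAG, stand in each although the genes do not all share a role. Rpl15 and Rps2 both encode cytosolic ribosomal proteins. They come from 5 of the 11 genes found with the motif. Any link between the motif and the array signals was not tested. CCGGAAG, a core sequence bound by ETS family factors, was searched on both strands from 250 bases before to 50 after each start in RefSeq promoters of GRCm38.p6. Of the 49 symbols, all 49 matched the gene table (1 under another current symbol, Wdr20b) and 34 had a promoter entry. Capitals mark the motif, which reads CTTCCGG where it lies on the opposite strand. The stretches are chr11:84513514-84513573 (minus strand) for Aatf, chr9:53248267-53248326 (minus strand) for Ddx10, chr2:130563697-130563756 (plus strand) for Mrps26, chr14:18271016-18271075 (minus strand) for Rpl15 and chr17:24719909-24719968 (plus strand) for Rps2.
Aatf: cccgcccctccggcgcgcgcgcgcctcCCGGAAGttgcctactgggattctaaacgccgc
Ddx10: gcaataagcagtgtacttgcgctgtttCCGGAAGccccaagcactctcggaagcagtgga
Mrps26: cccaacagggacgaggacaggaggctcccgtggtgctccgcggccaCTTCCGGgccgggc
Rpl15: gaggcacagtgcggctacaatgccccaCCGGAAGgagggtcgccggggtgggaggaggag
Rps2: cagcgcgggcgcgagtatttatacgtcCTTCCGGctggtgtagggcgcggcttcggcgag

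The first base of CCGGAAG, or of CTTCCGG, lay 45 bases before the start in Aatf, 187 in Ddx10, 14 in Mrps26, 62 in Rpl15 and 127 in Rps2, and Rpl15 held a further match at 157. The motif occurred in 11 of the 34 genes with a promoter (32.4%), in 116 of 745 other named genes of the list (15.6%) and in 2683 of 27025 genes in the promoter table (9.93%). CACGTG, the E-box bound by Myc and Max, occurred in 4 of the 34 (11.8%), namely Aatf, Rpl13a, Rpl23 and Wdr77. That sequence was found in 93 of 745 other named genes (12.5%) and in 2187 of 27025 genes (8.09%). Aatf held both motifs, at separate places, 204 bases before the start for CACGTG. A match is a stretch of letters and not a measured binding site.

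All values are centred log2 signals: 0 is the median of that probe set across the arrays, and a value gives a difference between arrays with no level above background. Array medians over all probe sets lay between -0.0126 and 0.0109, and of 9 blank cells none fell in these genes. The replicates are called biological, with no word on separate animals or cultures, and the p-values thus reflect only how these arrays vary. A probe set listed for F630028O10Rik and Mir223 read -0.08 and 0.15 in KO_starmut, 0.01 and 0.04 in KO_223mut, -0.01 and 0.14 in KO_MIG, and -0.98 and -1.07 in WT_MIG, which does not check the deletion, since where its probes lie relative to the deleted part is not given. Without levels, the labelled tissue cannot be checked against its markers. Of 79 cell type markers, 11 were named in the list, including 2 of 22 for mature myeloid cells, 3 of 9 for progenitors, 1 of 8 for mast cells and basophils, and none of 9 for T and NK cells or of 9 for erythroid cells. In limma, with p-values adjusted over all 28853 probe sets, Itgam (the CD11b chain of mature myeloid cells) fell by 1.15 on the log2 scale in KO_223mut against WT_MIG (SE 0.1, adjusted p = 0.00659), and Cd68, a macrophage lysosome protein, fell by 0.48 (SE 0.067, adjusted p = 0.0252). Itgam differed from WT_MIG by -0.68 in KO_starmut (limma adjusted p = 0.0598, or 0.0103 with the replicate number as a block) and by -0.59 in KO_MIG (limma adjusted p = 0.126, or 0.0239 with the block), so it fell in every knockout arm in the blocked fit. Cd68 differed by -0.27 in KO_starmut and -0.32 in KO_MIG (limma adjusted p = 0.203 and 0.199, or 0.0754 and 0.0713 with the block). Markers of other cells also moved in KO_starmut against WT_MIG: Cd200r3, a receptor of mast cells and basophils, rose by 0.92 (SE 0.093, limma adjusted p = 0.0123), and Ly6a, the progenitor antigen Sca-1, rose by 1.07 (SE 0.14, limma adjusted p = 0.0409). Flt3, a receptor of progenitors and dendritic cells, differed there by -0.58 (limma adjusted p = 0.127, or 0.0463 with the block), and Igll1, a B lineage gene, differed by 0.33 between KO_MIG and WT_MIG (limma adjusted p = 0.188, or 0.0455 with the block). Over all knockout arms Cd200r3 rose by 0.53, Itgam fell by 0.81 and Cd68 fell by 0.36 against WT_MIG (limma adjusted p = 0.0249, 0.0097 and 0.0324). Changes in the mix of cells and changes within each cell cannot be told apart in these bulk samples, and the part of the mix in the results below was not tested.

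In the comparison of KO_223mut with WT_MIG, none of the 51 probe sets reached the limma threshold, an adjusted p under 0.05, beside 0.721% of all probe sets, and the lowest adjusted p was 0.0754. Arrays with the same replicate number deviated together across the groups, and with the number as a block 4 of the 51 passed, beside 2.54% of all probe sets. These were Polr1d, Eif2b3, Wdr77 and Mrps26, and all rose in KO_223mut in that fit, by 1.25-fold to 1.29-fold.

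Polr1d, a subunit shared by RNA polymerases I and III, read 0.07 and 0.00 in KO_starmut, 0.21 and 0.15 in KO_223mut, 0.00 and -0.08 in KO_MIG, and -0.19 and -0.18 in WT_MIG. Both KO_223mut arrays were the highest of all and both WT_MIG arrays the lowest. Whether the Polr1d probe set also detects near-identical copies is not given, so its gene assignment is uncertain. The KO_223mut to WT_MIG difference was 0.36 ± 0.067 (log2, SE; 1.29-fold), with a limma adjusted p of 0.0754 without the block and 0.0238 with it. Eif2b3, the gamma subunit of the exchange factor that reloads eIF2 with GTP, read 0.04 and 0.06 in KO_starmut, 0.14 and 0.11 in KO_223mut, -0.04 and -0.09 in KO_MIG, and -0.18 and -0.22 in WT_MIG. None of its 4 groups overlapped with another. Its KO_223mut to WT_MIG difference was 0.32 ± 0.063, with a limma adjusted p of 0.0883 without the block and 0.0328 with it.

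Wdr77, a partner of the arginine methyltransferase Prmt5 in spliceosomal snRNP assembly, read 0.05 and 0.00 in KO_starmut, 0.12 and 0.13 in KO_223mut, 0.00 and -0.03 in KO_MIG, and -0.24 and -0.17 in WT_MIG. Its WT_MIG arrays stood well below the other 6, among which KO_223mut was highest. The KO_223mut to WT_MIG difference of 0.34 ± 0.064 had a limma adjusted p of 0.0842 without the block and 0.0348 with it. Mrps26, a small subunit protein of the mitochondrial ribosome, read 0.07 and 0.11 in KO_starmut, 0.23 and 0.06 in KO_223mut, -0.06 and -0.07 in KO_MIG, and -0.23 and -0.20 in WT_MIG. The KO_223mut arrays spread around those of KO_starmut, while KO_MIG and WT_MIG were each set apart below. Its KO_223mut to WT_MIG difference of 0.36 ± 0.075 had a limma adjusted p of 0.117 without the block and 0.0488 with it.

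Without adjustment, 19 of the 51 probe sets (37.3%) had a limma p under 0.05 between KO_223mut and WT_MIG, beside 9.68% of all probe sets and 41.8% of the other named probe sets of the list. They split into 18 higher, beside 4.96% of all probe sets, and 1 lower, beside 4.72%. Prpf18, a factor of the second catalytic step of splicing, was the one lower, at -0.16 ± 0.063 (limma adjusted p = 0.454). The median difference over the 51 was 0.127, beside 0.0259 over the other named probe sets and 0.0166 over all probe sets. Differences of the 51 ranged from -0.16 to 0.36, so none reached a 1.3-fold change.

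**Figure D1:**
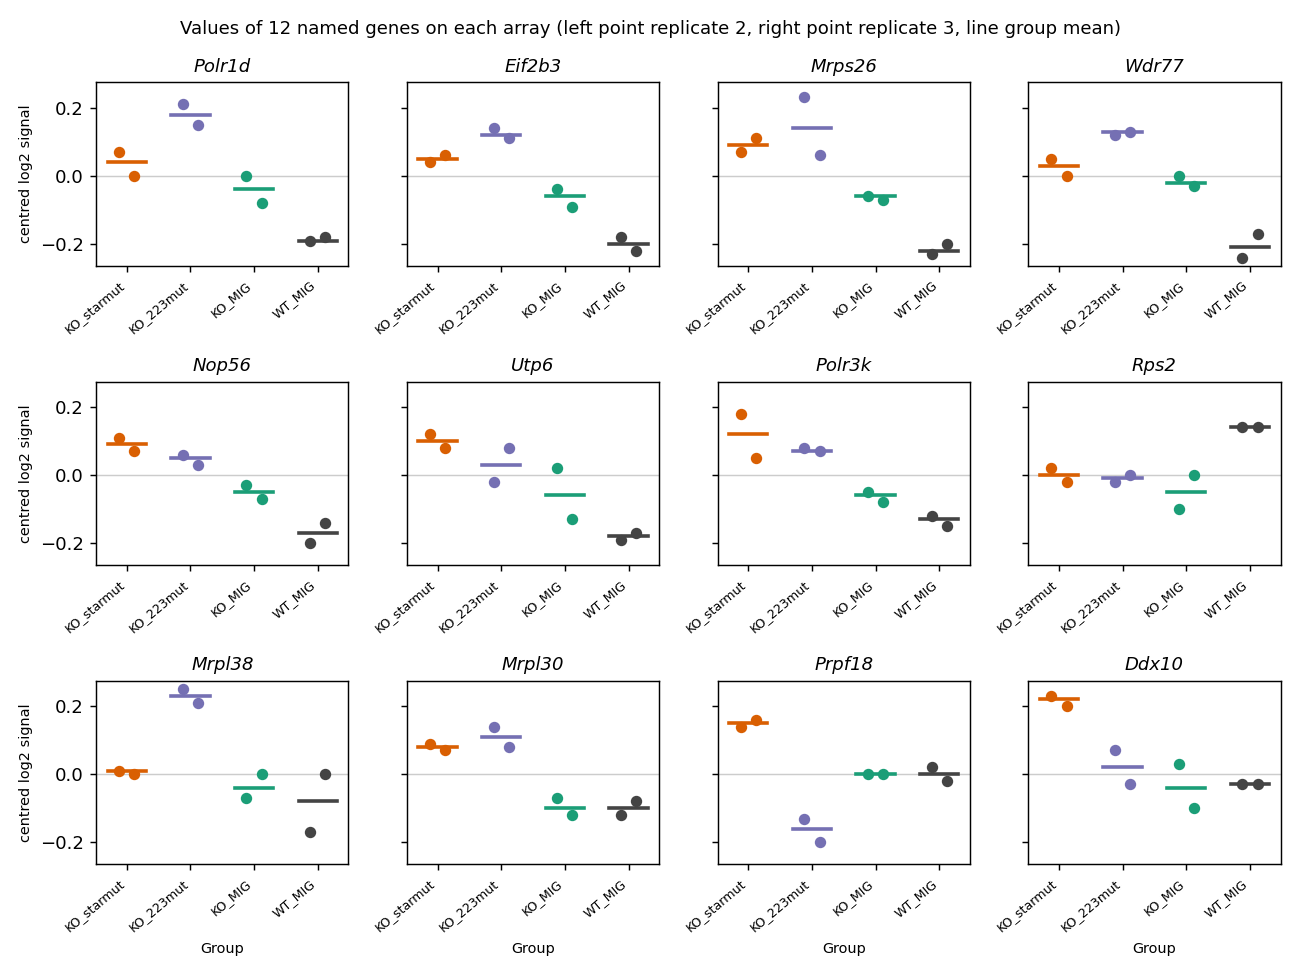
Centred log2 signal (y axis) of 12 named genes on each array, by group (x axis); points are arrays, replicate 2 left and replicate 3 right, and short lines are means of 2 arrays. In Polr1d, Eif2b3, Mrps26 and Wdr77 both WT_MIG arrays lie lowest, in Rps2 they lie highest at 0.14, and in Prpf18 both KO_starmut arrays lie highest and both KO_223mut arrays lowest.

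For KO_starmut against WT_MIG, none of the 51 passed in limma without the block, beside 0.246% of all probe sets, or with it, beside 1.69%. The lowest adjusted p was 0.203 without the block and 0.084 with it. Unadjusted p-values under 0.05 were found for 16 (31.4%), beside 8.56% of all probe sets and 41.5% of the other named ones. All 16 were higher in KO_starmut, beside 3.69% of all probe sets, and 0 were lower, beside 4.87%. The median difference was 0.136 over the 51, beside -0.0214 over the other named probe sets and -0.00538 over all, and 44 of the 51 (86.3%) were above 0, beside 46.6% of the other named and 47.6% of all.

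For KO_MIG against WT_MIG, which compares the genotypes without a miR-223 vector as the names are taken, none of the 51 passed in limma without the block, beside 0.135% of all probe sets, or with it, beside 0.96%. The lowest adjusted p was 0.499 without the block and 0.185 with it. Unadjusted p-values under 0.05 were found for 6 (11.8%), beside 5.58% of all probe sets and 29.3% of the other named ones. Of these 5 were higher, beside 2.96% of all probe sets, and 1 was lower, beside 2.63%. The median difference was 0.0581, beside 0.0298 over the other named probe sets and 0.0078 over all.

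With the 3 knockout arms averaged and set against WT_MIG, 0 of the 51 passed in limma without the block, beside 0.915% of all probe sets, and 3 passed with it, beside 2.85%. The 3 were Wdr77 (0.25 ± 0.052, adjusted p = 0.0971 without the block and 0.0417 with it), Polr1d (0.24 ± 0.055, 0.131 and 0.0426) and Eif2b3 (0.24 ± 0.051, 0.112 and 0.0437). Unadjusted limma p-values under 0.05 were found for 19 (37.3%), beside 9.28% of all probe sets and 41.5% of the other named ones. Of the 19, 18 were higher, beside 4.57% of all probe sets, and 1 was lower, beside 4.71%. The comparisons with WT_MIG all rest on the same 2 wild-type arrays, so they are not separate evidence for a direction.

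**Figure D2:**
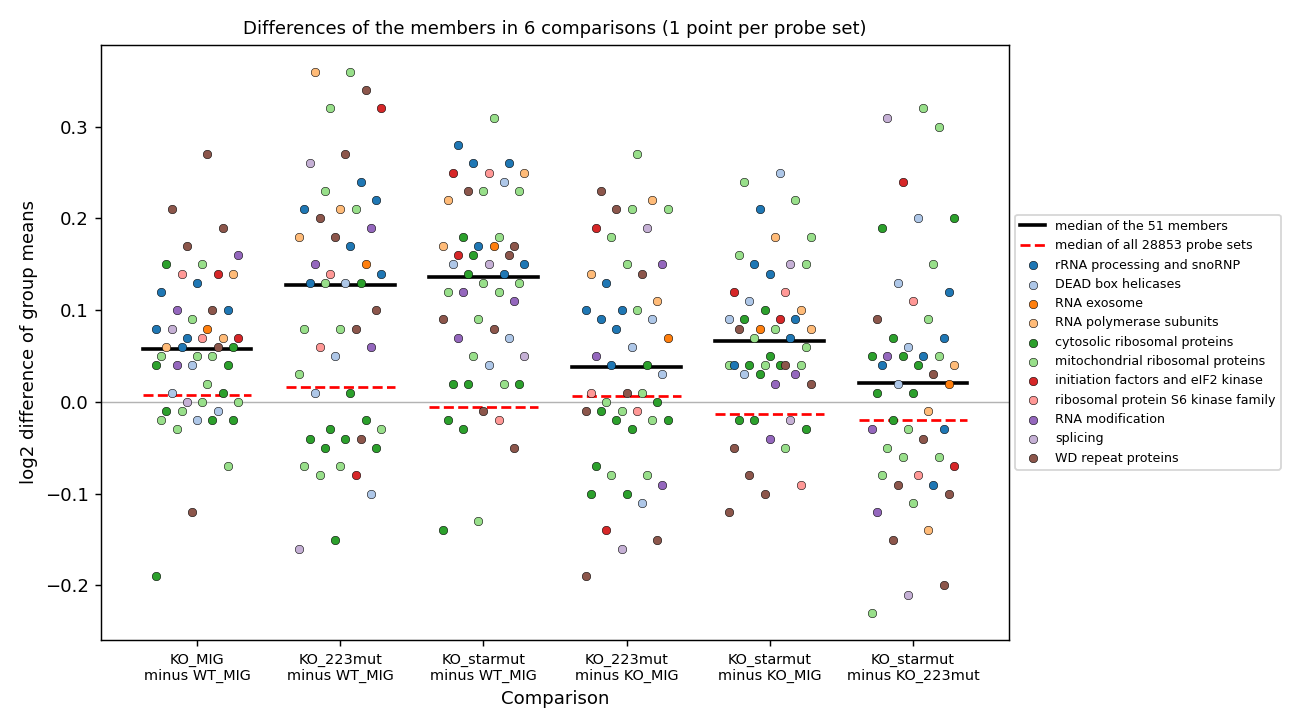
Log2 difference of group means (y axis) for each of the 51 probe sets in 6 comparisons of 2 groups (x axis), coloured by role; black lines are medians of the 51 and red dashed lines are medians of all 28853 probe sets. The black line lies above the red one in each comparison, by the most in KO_starmut minus WT_MIG (0.136 against -0.00538), and no point lies beyond 0.36 in size.

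The order of the group means was read for each probe set. WT_MIG had the lowest mean in 29 of the 51 (56.9%), beside 36.7% of the other named probe sets and 30.6% of all. It had the highest mean in 3 (5.88%), beside 30% and 25.2%. KO_starmut had the highest mean in 23 (45.1%), beside 16.6% and 20%, and the lowest in 3 (5.88%), beside 32.3% and 30.4%. KO_223mut was highest in 18 (35.3%), beside 30.8% and 32.2%, and lowest in 12 (23.5%), beside 21.7% and 20.4%, so its shares lay near the background. KO_MIG was highest in 7 (13.7%), beside 22.6% and 22.5%, and lowest in 7 (13.7%), beside 9.32% and 18.6%. In 21 of the 51 (41.2%) WT_MIG was lowest, KO_MIG next and both miR-223 vector arms above, an order found in 16.4% of the other named probe sets and 12.5% of all. Array by array, the median over the 51 was 0.0562 and 0.0435 in KO_starmut, 0.00617 and 0.0477 in KO_223mut, -0.0055 and -0.0145 in KO_MIG, and -0.0832 and -0.0772 in WT_MIG. The WT_MIG arrays were the lowest and did not overlap with any other group, while KO_starmut and KO_223mut overlapped.

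**Figure D3:**
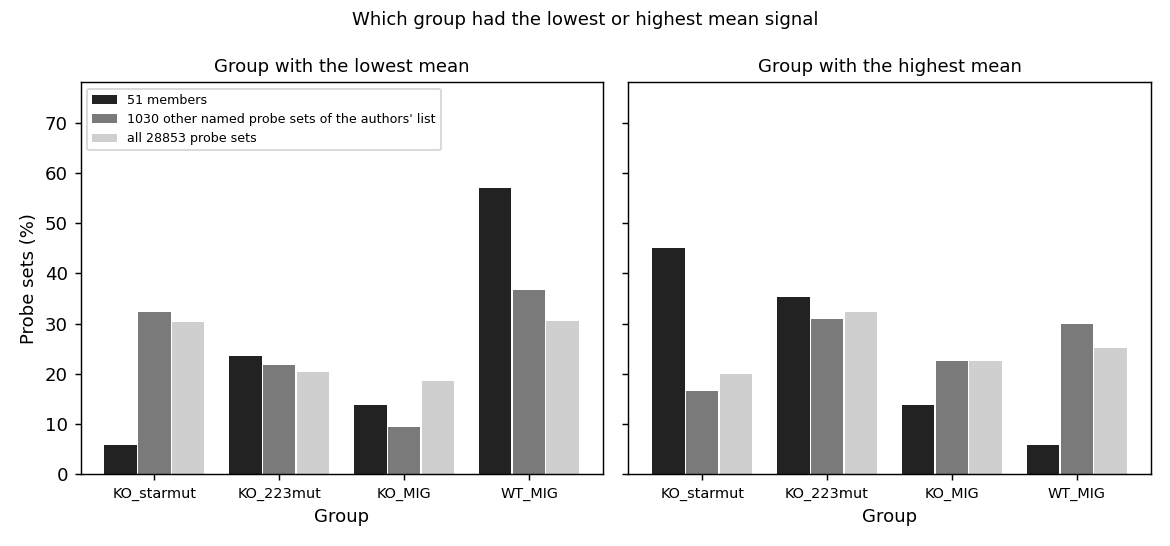
Share of probe sets (y axis, percent) in which each group (x axis) had the lowest mean (left) or the highest mean (right), for the 51 probe sets, the 1030 other named probe sets of the list and all 28853 probe sets. Among the 51, WT_MIG was lowest in 56.9% and KO_starmut highest in 45.1%.

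The factors that process ribosomal RNA shared an order of group means. All 6 (Aatf, Nol6, Nol9, Nop56, Nop58 and Utp6) had the order WT_MIG, KO_MIG, then both miR-223 vector arms. That order was found in 41.2% of the 51, 16.4% of the other named probe sets and 12.5% of all. Whether these factors differ in this from other roles was not tested. Their median differences from WT_MIG were 0.215 in KO_starmut, 0.191 in KO_223mut and 0.0939 in KO_MIG, and 4, 4 and 0 of the 6 had an unadjusted limma p under 0.05 in those comparisons, beside 41.5%, 41.8% and 29.3% of the other named probe sets and 8.56%, 9.68% and 5.58% of all. None passed after adjustment.

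Nop56, a core protein of the box C/D small nucleolar RNPs that guide methylation of ribosomal RNA, read 0.11 and 0.07 in KO_starmut, 0.06 and 0.03 in KO_223mut, -0.03 and -0.07 in KO_MIG, and -0.20 and -0.14 in WT_MIG. None of the 4 groups overlapped. The KO_starmut to WT_MIG difference was 0.26 ± 0.063 (limma adjusted p = 0.203, or 0.084 with the block). Nop58, its partner in the same particle, read 0.18 and 0.17 in KO_starmut, -0.03 and 0.14 in KO_223mut, -0.04 and -0.01 in KO_MIG, and -0.18 and 0.01 in WT_MIG. Only KO_starmut was free of overlap, and its difference from WT_MIG was 0.26 ± 0.089 (limma adjusted p = 0.41), or 0.16 without WT_MIG replicate 2. Utp6, a protein of the small subunit processome, read 0.12 and 0.08 in KO_starmut, -0.02 and 0.08 in KO_223mut, 0.02 and -0.13 in KO_MIG, and -0.19 and -0.17 in WT_MIG. Its WT_MIG arrays were below the other 6, and the KO_starmut to WT_MIG difference was 0.28 ± 0.075 (limma adjusted p = 0.257). Aatf and Nol6, which also act in small subunit assembly, and Nol9, a polynucleotide kinase of large subunit rRNA processing, spanned 0.27, 0.20 and 0.22 over the 8 arrays.

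Of the 3 RNA polymerase subunits, all had the same order as the rRNA factors, with WT_MIG lowest and KO_MIG next. It was found in 16.4% of the other named probe sets and 12.5% of all. Median differences of the 3 from WT_MIG were 0.223 in KO_starmut, 0.21 in KO_223mut and 0.0711 in KO_MIG. An unadjusted limma p under 0.05 was found for 3, 3 and 0 of the 3. The shares beside these are 41.5%, 41.8% and 29.3% of the other named probe sets and 8.56%, 9.68% and 5.58% of all. Polr3k, a subunit of RNA polymerase III, read 0.18 and 0.05 in KO_starmut, 0.08 and 0.07 in KO_223mut, -0.05 and -0.08 in KO_MIG, and -0.12 and -0.15 in WT_MIG. KO_starmut and KO_223mut overlapped with each other and stood above KO_MIG and WT_MIG. The third, Polr2d, belongs to RNA polymerase II, which makes messenger RNA, and spanned 0.22 over the arrays.

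Exosc3, a cap subunit of the RNA exosome that trims the ends of ribosomal RNA precursors, differed from WT_MIG by 0.17 in KO_starmut, 0.15 in KO_223mut and 0.08 in KO_MIG. In all 4 DEAD box helicases (Ddx10, Ddx24, Ddx28 and Ddx47) KO_starmut had the highest mean. It was highest in 45.1% of the 51, 16.6% of the other named probe sets and 20% of all. Its margin over KO_223mut was 0.02 in Ddx47 and 0.06 in Ddx24. The median difference of the helicases from WT_MIG was 0.109 in KO_starmut, 0.0279 in KO_223mut and 0.000896 in KO_MIG. Whether helicases differ in this from other roles was not tested. Ddx10, whose yeast relative Dbp4 acts in small subunit rRNA processing, read 0.23 and 0.20 in KO_starmut, 0.07 and -0.03 in KO_223mut, 0.03 and -0.10 in KO_MIG, and -0.03 and -0.03 in WT_MIG. Both KO_starmut arrays were above all others, and the other 3 groups overlapped. Ddx47, also an rRNA processing helicase, spanned 0.21 over the arrays and Ddx24 spanned 0.12. Ddx28, which acts in assembly of the mitochondrial ribosome, spanned 0.38, which was the gap between the WT_MIG arrays at 0.21 and -0.16.

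The mitochondrial ribosomal proteins gave 12 probe sets for 11 symbols (Mrpl12, Mrpl23, Mrpl30, Mrpl38, Mrpl39, Mrpl45, Mrpl51, Mrps12, Mrps17, Mrps26 and Mrps33). Their median differences from WT_MIG were 0.126 in KO_starmut, with 11 of 12 above 0, 0.0824 in KO_223mut, with 8 of 12, and 0.00869 in KO_MIG, with 7 of 12. Above 0 in those comparisons were 46.6%, 54.9% and 58.4% of the other named probe sets, and 47.6%, 56.9% and 54% of all. WT_MIG had the lowest mean in 6 of the 12, beside 36.7% of the other named probe sets and 30.6% of all. KO_223mut had the highest mean in 6, beside 30.8% and 32.2%. Whether mitochondrial ribosomal proteins differ in this from other roles was not tested. Mrpl38, a large subunit protein, read 0.01 and 0.00 in KO_starmut, 0.25 and 0.21 in KO_223mut, -0.07 and 0.00 in KO_MIG, and -0.17 and 0.00 in WT_MIG. Only KO_223mut stood apart, at 0.32 ± 0.077 above WT_MIG (limma adjusted p = 0.176) and 0.27 ± 0.077 above KO_MIG (limma adjusted p = 1). Mrpl30, another large subunit protein, read 0.09 and 0.07 in KO_starmut, 0.14 and 0.08 in KO_223mut, -0.07 and -0.12 in KO_MIG, and -0.12 and -0.08 in WT_MIG. The miR-223 vector arms overlapped with each other and lay above KO_MIG and WT_MIG, which also overlapped.

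Mrpl23 was measured by a pair of probe sets that gave nearly the same values. Probe set 10559233 read 0.22 and 0.21 in KO_starmut, -0.28 and 0.07 in KO_223mut, -0.06 and 0.02 in KO_MIG, and -0.02 and -0.02 in WT_MIG. Probe set 10483786 read 0.21 and 0.21 in KO_starmut, -0.27 and 0.09 in KO_223mut, -0.03 and 0.02 in KO_MIG, and -0.02 and -0.03 in WT_MIG. In both, KO_starmut was highest and the KO_223mut arrays lay far apart, so the differences of 0.32 ± 0.11 and 0.30 ± 0.11 between KO_starmut and KO_223mut (limma adjusted p = 1 for both) were 0.14 and 0.12 without KO_223mut replicate 2 and 0.49 and 0.48 without its replicate 3. Across the remaining mitochondrial members named only by symbol, the span over the arrays ran from 0.13 for Mrpl39 to 0.29 for Mrpl12.

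Cytosolic ribosomal proteins gave 9 probe sets for 8 symbols (Rpl13a, Rpl15, Rpl17, Rpl23, Rpl24, Rpl29, Rps2 and Rps20). Of the 9, 0 had WT_MIG lowest followed by KO_MIG and then both miR-223 vector arms. That order was found in 16.4% of the other named probe sets and 12.5% of all. KO_223mut had the lowest mean in 6 of the 9, beside 21.7% of the other named probe sets and 20.4% of all. Whether these proteins differ in this from other roles was not tested. Median differences of the 9 from WT_MIG were 0.0158 in KO_starmut, -0.0361 in KO_223mut and 0.0149 in KO_MIG. Of the 51, 4 spanned under 0.1 over all 8 arrays, namely Rpl17, Rpl23, Rpl29 (0.04) and Rps20. Such a span was found in 9 of the 1030 other named probe sets and 842 of all 28853. The Rpl24 pair spanned 0.33 and 0.34, Rps2 0.24, Rpl15 0.19 and Rpl13a 0.1. Median spans were 0.253 over the 51, 0.292 over the other named probe sets and 0.275 over all. The cause of the narrow spans was not tested.

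Rpl15, a large subunit protein, read 0.05 and 0.05 in KO_starmut, -0.01 and 0.01 in KO_223mut, -0.01 and 0.04 in KO_MIG, and -0.13 and -0.14 in WT_MIG. Its WT_MIG arrays were the lowest, and KO_MIG differed from WT_MIG by 0.15 ± 0.061 (limma adjusted p = 0.837). Rps2, a small subunit protein, ran the other way and read 0.02 and -0.02 in KO_starmut, -0.02 and 0.00 in KO_223mut, -0.10 and 0.00 in KO_MIG, and 0.14 and 0.14 in WT_MIG. Both WT_MIG arrays were above the other 6, and KO_MIG differed from WT_MIG by -0.19 ± 0.066 (limma adjusted p = 0.695). The Rpl24 probe sets 10436232 and 10597515 read -0.25 and -0.24 in KO_223mut replicate 2 and 0.04 and 0.03 in replicate 3, so gaps of 0.29 and 0.27 separated the replicates of that group. Mouse ribosomal protein genes have many near-identical processed copies. Of the list's probe sets with several symbols, 25 carry a symbol that the same prefixes would take, 19 of them a cytosolic ribosomal protein, and 4 of those are listed for Rpl15 with Gm4294. Whether the single-symbol probe sets also detect such copies is not given, so these gene assignments are uncertain. The same holds for the single-symbol probe sets of the other roles, Polr1d among them.

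Among proteins that control translation, the kinases behaved less uniformly than Eif2b3. Eif2ak2, the double-stranded RNA sensor PKR that phosphorylates eIF2, read 0.10 and 0.09 in KO_starmut, -0.13 and -0.15 in KO_223mut, 0.00 and 0.00 in KO_MIG, and 0.02 and -0.15 in WT_MIG. KO_starmut was highest, and KO_223mut and WT_MIG overlapped. Rps6kb1, the S6 kinase downstream of mTOR, read 0.13 and 0.09 in KO_starmut, -0.05 and 0.05 in KO_223mut, 0.08 and -0.09 in KO_MIG, and -0.12 and -0.16 in WT_MIG. Its WT_MIG arrays were lowest and KO_starmut highest, by 0.25 ± 0.079 (limma adjusted p = 0.349). Rps6ka3, a kinase of the RSK family named for the same substrate, spanned 0.20.

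The 3 genes under modification prefixes had WT_MIG lowest in all 3, beside 36.7% of the other named probe sets and 30.6% of all. Median differences of the 3 from WT_MIG were 0.112 in KO_starmut, 0.153 in KO_223mut and 0.102 in KO_MIG. These genes were Trmt6 and Trmt11, subunits of transfer RNA methyltransferases, and Mettl9, which methylates histidine in proteins and so shares the prefix only. Both splicing factors separated the miR-223 vector arms in opposite directions. Prpf18 read 0.14 and 0.16 in KO_starmut, -0.13 and -0.20 in KO_223mut, 0.00 and 0.00 in KO_MIG, and 0.02 and -0.02 in WT_MIG. Sf3b4, a subunit of the SF3b complex that binds the branch site, read 0.00 and 0.00 in KO_starmut, 0.28 and 0.14 in KO_223mut, 0.07 and -0.02 in KO_MIG, and -0.05 and -0.06 in WT_MIG. In Prpf18 KO_starmut was highest and KO_223mut lowest, and in Sf3b4 KO_223mut was highest and WT_MIG lowest.

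WD repeat proteins share a fold and not a function, and their KO_MIG to WT_MIG difference was close to that of KO_223mut and above that of KO_starmut. Median differences from WT_MIG were 0.0913 in KO_starmut, 0.185 in KO_223mut and 0.171 in KO_MIG, and 4 of the 6 probe sets with an unadjusted p under 0.05 between KO_MIG and WT_MIG (29.3% of the other named probe sets and 5.58% of all had one) were WD repeat genes. Whether WD repeat genes differ in this from other roles was not tested. Wdr11, which acts in membrane trafficking, read -0.01 and 0.04 in KO_starmut, -0.17 and 0.01 in KO_223mut, 0.09 and 0.13 in KO_MIG, and -0.14 and -0.17 in WT_MIG. Both KO_MIG arrays were the highest, at 0.27 ± 0.077 above WT_MIG (limma adjusted p = 0.499). Wdr61, a subunit of the Paf1 transcription complex and of the SKI complex of RNA decay, read -0.07 and 0.00 in KO_starmut, 0.00 and 0.01 in KO_223mut, 0.01 and 0.02 in KO_MIG, and -0.20 and -0.19 in WT_MIG. The knockout arms lay within 0.09 of each other and WT_MIG below them, by 0.21 ± 0.062 between KO_MIG and WT_MIG (limma adjusted p = 0.54).

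Wdr25 read -0.01 and -0.01 in KO_starmut, 0.07 and 0.09 in KO_223mut, 0.01 and 0.12 in KO_MIG, and -0.12 and -0.09 in WT_MIG, again with WT_MIG lowest. Its KO_MIG to WT_MIG difference was 0.17 ± 0.066 (limma adjusted p = 0.797), and that of Wdr77 was 0.19 ± 0.064 (limma adjusted p = 0.666). Wdr18, part of the complex that releases large subunit precursors from the nucleolus, read 0.00 and 0.00 in KO_starmut, 0.24 and 0.15 in KO_223mut, 0.08 and -0.11 in KO_MIG, and -0.07 and -0.08 in WT_MIG. KO_223mut was highest and the WT_MIG arrays lay between those of KO_MIG. Wdr20b had the widest span of the 51, 0.55, which was the gap between the KO_223mut arrays at 0.44 and -0.11, and Wdr73 spanned 0.20.

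**Figure D4:**
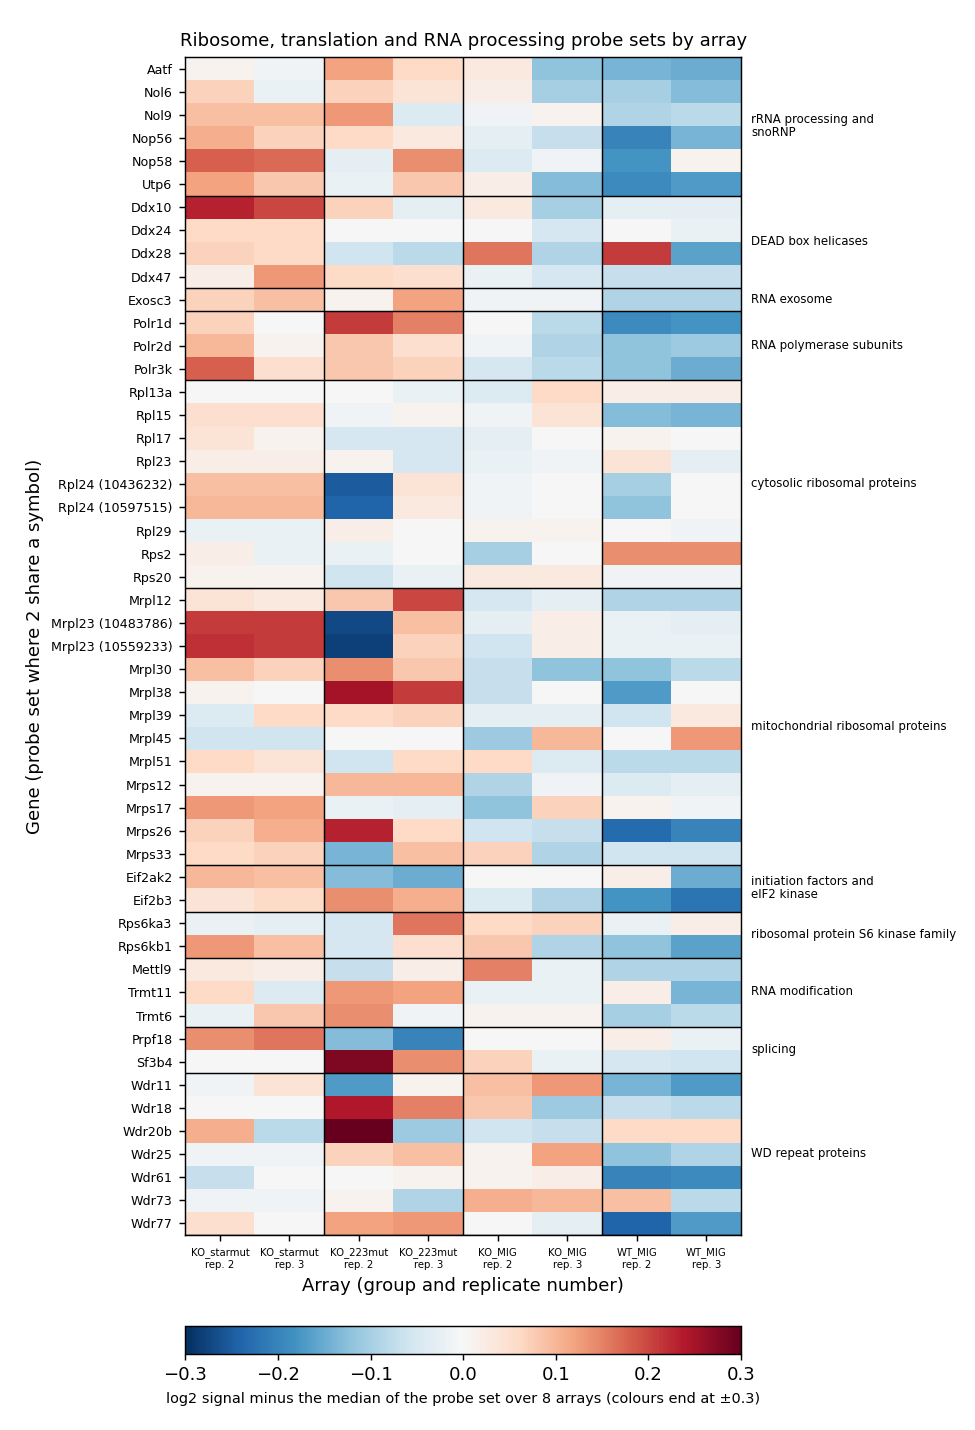
Centred log2 signal (colour, blue low and red high, ending at 0.3 in size) of the 51 probe sets (rows, by role) on the 8 arrays (columns, by group and replicate). The WT_MIG columns are blue for the rRNA processing, polymerase and exosome rows, apart from Nop58 in replicate 3 at 0.01. Among the cytosolic ribosomal protein rows, Rpl29 spans 0.04 and the Rpl24 pair is dark in KO_223mut replicate 2 only. The WT_MIG arrays read 0.14 and 0.14 in Rps2, and -0.13 and -0.14 in Rpl15.

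KO_starmut and KO_223mut were also set against KO_MIG. Between KO_223mut and KO_MIG, none of the 51 passed in limma without or with the block, beside 0% of all probe sets in both fits. Unadjusted p-values under 0.05 were found for 11 (21.6%), beside 4.06% of all probe sets and 19.8% of the other named ones, with 9 higher, beside 1.75%, and 2 lower, beside 2.31%. The largest were Mrpl38 at 0.27 ± 0.077, Polr1d at 0.22 ± 0.067, Wdr18 at 0.21 ± 0.081, Mrpl30 at 0.21 ± 0.064 and Mrps26 at 0.21 ± 0.075, and those lower were Wdr11 at -0.19 ± 0.077 and Prpf18 at -0.16 ± 0.063. Without KO_223mut replicate 2, Mrps26 was at 0.12 and Wdr11 at -0.10, and without KO_MIG replicate 3 Wdr18 was at 0.11. All 7 had a limma adjusted p of 1 without the block and of 0.392 to 0.508 with it. The median over the 51 was 0.0385, beside 0.00677 over all probe sets.

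Between KO_starmut and KO_MIG, 0 of the 51 passed in limma in either fit, beside 0% of all probe sets. Unadjusted p-values under 0.05 were found for 3 (5.88%), beside 4.2% of all probe sets and 21.6% of the other named ones. All 3 were higher, beside 1.21% of all probe sets, and 0 were lower, beside 2.99%. The 3 were Ddx10 at 0.25 ± 0.073, Polr3k at 0.18 ± 0.07 and Mrpl30 at 0.18 ± 0.064, with limma adjusted p-values of 1 without the block and of 0.34, 0.462 and 0.455 with it. Polr3k was at 0.11 without KO_starmut replicate 2. The median was 0.0659 over the 51, beside -0.0472 over the other named probe sets and -0.0132 over all.

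In the direct comparison of the vectors, KO_starmut against KO_223mut, both strands differ as the names are taken. A difference there cannot be assigned to either strand. None of the 51 passed in limma without the block, beside 0% of all probe sets, or with it, beside 0.00347%, which is 1 probe set. Unadjusted p-values under 0.05 were found for 8 (15.7%), beside 4.71% of all probe sets and 20.2% of the other named ones. Higher in KO_starmut were 5, beside 1.84% of all probe sets: the Mrpl23 pair, Prpf18 at 0.31 ± 0.063, Eif2ak2 at 0.24 ± 0.074 and Ddx10 at 0.20 ± 0.073. Lower in KO_starmut were 3, beside 2.86%: Mrpl38 at -0.23 ± 0.077, Sf3b4 at -0.21 ± 0.073 and Wdr18 at -0.20 ± 0.081. Prpf18 had the lowest limma adjusted p of the 51 there, 0.954 without the block and 0.205 with it. The median over the 51 was 0.0209, beside -0.0202 over all probe sets, with 29 of 51 higher in KO_starmut. It was 0.0349 with each array centred on its median and 0.0344 without KO_starmut replicate 3.

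Replicates of these genes lay closer together than those of all probe sets by their medians. The authors' test favours probe sets with little spread inside groups, and the part of that selection in the gaps was not tested. The median gap between replicates over the 51 was 0.0157 in KO_starmut, 0.059 in KO_223mut, 0.0451 in KO_MIG and 0.0179 in WT_MIG, beside 0.0884, 0.101, 0.0954 and 0.0974 over all probe sets. Gaps over 0.2 occurred in 7 of the 51 in KO_223mut, 2 in KO_MIG, 1 in WT_MIG and 0 in KO_starmut. The share over all probe sets was not computed, so nothing is read from these counts.

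Other genes of the same pathways, taken from lists by name, gave 23 named genes of 255 listed. Of 70 further ribosome biogenesis factors 8 were named, and 0 of them passed in limma. Above 0 against WT_MIG were 8 of the 8 in KO_starmut (median 0.15), 7 in KO_223mut (0.21) and 7 in KO_MIG (0.065), with 4, 7 and 0 at an unadjusted p under 0.05. Of the named probe sets of the list outside the 51, 41.5%, 41.8% and 29.3% had such a p in those comparisons (8.56%, 9.68% and 5.58% of all probe sets), and 46.6%, 54.9% and 58.4% were above 0 (47.6%, 56.9% and 54% of all). Bop1, which acts in large subunit rRNA processing, differed from WT_MIG by 0.35 in KO_223mut (limma adjusted p = 0.145), and Znhit6, an assembly factor of box C/D particles, by 0.32 (limma adjusted p = 0.24). Noc4l, a small subunit processome protein, differed by 0.24 there (limma adjusted p = 0.261), and Taf1d, a subunit of the RNA polymerase I factor SL1, by -0.08 (limma adjusted p = 0.868). KO_starmut was higher in Taf1d, by 0.2 against WT_MIG (limma adjusted p = 0.534) and by 0.31 against KO_MIG (limma adjusted p = 0.295 with the block).

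Of 61 elongation factors, release factors and aminoacyl-tRNA synthetase genes, 5 were named, and 4 of the 5 were above 0 against WT_MIG in each knockout arm. Aimp2, a scaffold of the synthetase complex, differed by 0.39 ± 0.068 between KO_223mut and WT_MIG, with a limma adjusted p of 0.0612 without the block and 0.0265 with it, and by 0.27 over all knockout arms (0.0921 and 0.0416). Of 90 further splicing, export and decay genes 9 were named, and 0 passed in limma. Against WT_MIG 9 were above 0 in KO_starmut, 8 in KO_223mut and 8 in KO_MIG. Of 34 regulators of ribosome production, Myc and mTOR pathway genes among them, only Trp53 was named, at 0.22 above WT_MIG in KO_223mut (limma adjusted p = 0.421). Genes of these lists that are not in the authors' list carry no name here and were not analysed.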

How the data were processed

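Values from 8 Affymetrix Mouse Gene 1.0 ST arrays were used. Per the file headers, the authors summarised the signals by RMA16 with annotation release na31 on build mm9. The authors deposited log2 signals centred on the median of every probe set across the 8 arrays. This was checked on the values, whose probe set medians are 0 within 7e-07. Membership of the authors' list required, per the file headers, raw signal in the 20th to 100th percentile and an uncorrected p-value under 0.05 in a Welch one-way analysis of variance over the 4 groups. The authors also deposited, per the file headers, log2 fold changes, linear ratios (fold changes) and signed fold changes, a score. Deposited log2 fold changes equalled differences of group means within 4.9e-07. Of the list's probe sets, 138 have several symbols and 45 none. No level above background is left, so a filter on dim probe sets could not be applied.

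The log2 values of all 28853 probe sets were fitted in R 4.3.3 by limma 3.58.1, with statmod 1.5.0 installed, using the 4 groups as terms, with 4 residual and 3.67 prior degrees of freedom. The 7 comparisons were adjusted separately by Benjamini-Hochberg over all probe sets, two-sided, at 0.05. Fold changes are those of group means, and errors are moderated standard errors. The script was tested on simulated data. Precision is set by having 2 arrays a group.

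The labels do not say whether replicate numbers pair the arrays. Deviations of same-numbered arrays correlated at 0.36 to 0.533 in all 6 pairs of groups over all probe sets (0.0994 to 0.362 over the 51), so the fit with the number as a block is given beside each call it changes.

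The members, the lists and the naming rule were chosen with earlier results of these data known. Values are given for each gene that passed in either fit. They are also given for the 10 largest in each direction with an unadjusted p under 0.05 between KO_MIG and WT_MIG, for the 5 largest in each direction in other comparisons of 2 groups, and for at most 4 genes of a list. Promoter and microRNA sequences are RefSeq entries of GRCm38.p6. The alternatives were the block, each array centred on its median, robust moderation, averaged probe sets, only the arrays compared, and leaving out each array.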

Additional observations from a re-analysis of the deposited data

How the results depend on the processing

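Of 38 named differences, recomputed to 491 values under the alternatives, 484 kept their direction and their side of the threshold, 7 passed with the replicate block alone, and 0 turned in direction. With the replicate block, the count passing was 4 instead of 0 between KO_223mut and WT_MIG and 3 instead of 0 between all knockout arms and WT_MIG; in the other comparisons, and in every comparison under the other alternatives, it was 0. Over all probe sets the block moved the count passing to 277 instead of 39 between KO_MIG and WT_MIG, 732 instead of 208 between KO_223mut and WT_MIG, 488 instead of 71 between KO_starmut and WT_MIG, 822 instead of 264 between all knockout arms and WT_MIG, and 1 instead of 0 between KO_starmut and KO_223mut. With each array centred on its median, the median between KO_starmut and KO_MIG was 0.0776 (0.0659 otherwise) and that between KO_starmut and KO_223mut 0.0349 (0.0209 otherwise). Leaving out each array in turn, the median over the 51 stayed between 0.128 and 0.149 for KO_starmut minus WT_MIG, 0.0946 and 0.14 for KO_223mut minus WT_MIG, 0.0438 and 0.0655 for KO_MIG minus WT_MIG, 0.0552 and 0.0848 for KO_starmut minus KO_MIG, 0.0269 and 0.0537 for KO_223mut minus KO_MIG, 0.0169 and 0.0344 for KO_starmut minus KO_223mut, and 0.0967 and 0.117 for all knockout arms minus WT_MIG. The cause of these shifts was not tested. A group left with 1 array was assumed to vary like the others. Signal over background limits nothing that could be assessed here, since the deposited values hold no level.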
